A study of Mus musculus with 3 samples.

Results

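Non-muscle myosin II is the motor that lets a platelet contract. A pair of heavy chains each carry an essential and a regulatory light chain, and phosphorylation of the regulatory chain switches the motor on. In platelets the motor drives shape change, clot retraction and the release of platelets from megakaryocytes, and in humans variants of MYH9 cause a disorder with large and few platelets. Here 10 genes were followed, chosen by name: the heavy chain Myh9, the regulatory light chains Myl9, Myl12a and Myl12b, the essential light chain Myl6, the light chain kinase Mylk, the kinases Rock1 and Rock2, and the phosphatase subunits Ppp1r12a and Ppp1cb. All 10 were among the 9822 genes of the count tables.

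The samples were platelets purified from blood of male BALB/c mice, 20 weeks old and wild type for Nxf1, in 1 group of 3 RNA sequencing libraries. Each library is also a batch of its own by its label, so sample and batch cannot be told apart. The labels do not say that each sample came from a separate mouse, so each error is the spread of these samples alone and may be technical in origin. Totals were 26974129, 25189231 and 26111636 counts in replicates 1, 2 and 3. No pair of libraries agreed within counting error (chi-square over genes, divided by its degrees of freedom, 17.9 to 104). All 8 platelet markers on the marker list were at 100 CPM or more (counts scaled to a library total of 1000000) in every library. Red cell markers summed to 48710, 5215 and 6800 CPM in replicates 1, 2 and 3. Since the samples are bulk RNA, fewer cells of a type and less RNA per cell cannot be told apart.

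The light chains are short and have close relatives in the genome, which bears on every value that follows. Myl9, Myl12a and Myl12b each encode 171 residues after the initiator methionine. The coding sequences of Myl12a and Myl12b differed at 18 of 516 bases and their products at 4 residues. Myl9 differed from Myl12a at 74 bases and 10 residues, and from Myl12b at 70 bases and 11 residues. The stretch below surrounds the threonine and serine that the kinases phosphorylate, residues 18 and 19 when the methionine is not counted, with those codons in capitals. It is shown because the site is common to the 3 products while the bases tell Myl9 from the other pair. It lies at chr2:156778575-156778628 on the plus strand for Myl9, and at chr17:70996797-70996850 and chr17:70977148-70977201 on the minus strand for Myl12a and Myl12b (GENCODE M21 transcripts, build GRCm38, 5′ to 3′).
Myl9: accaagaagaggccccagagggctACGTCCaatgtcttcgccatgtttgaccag
Myl12a: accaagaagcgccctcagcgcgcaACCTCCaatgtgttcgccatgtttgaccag
Myl12b: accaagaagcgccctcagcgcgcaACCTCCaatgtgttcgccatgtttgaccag
Over these 54 bases Myl12a and Myl12b did not differ, and Myl9 differed from each at 8.

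The longest run without a difference between Myl12a and Myl12b was the last 102 coding bases, shown because a read inside it fits both genes. Capitals in the Myl9 line mark the 17 bases at which Myl9 differs from Myl12b. The runs lie at chr2:156781058-156781159 (plus strand), chr17:70994615-70994716 and chr17:70974327-70974428 (minus strand).
Myl9: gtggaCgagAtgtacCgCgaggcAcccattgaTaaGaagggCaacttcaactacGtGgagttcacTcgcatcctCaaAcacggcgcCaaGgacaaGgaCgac
Myl12a: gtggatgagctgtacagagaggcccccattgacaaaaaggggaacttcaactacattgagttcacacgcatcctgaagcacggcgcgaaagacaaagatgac
Myl12b: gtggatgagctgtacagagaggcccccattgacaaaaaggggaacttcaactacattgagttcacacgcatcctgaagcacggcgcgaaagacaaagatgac
Across the whole principal transcripts, the share of windows of 100 bases found in transcripts of another gene was 1.14% for Myl12a and 1.03% for Myl12b. With windows of 50 bases these shares were 11.5% and 11.4%. Myl9 had no window of either size in another gene.

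For Myl6 the overlap was larger. Of its windows of 100 bases 26.5% were found in other genes, and of its windows of 50 bases 53.2%, all of them in 5 processed pseudogenes. Of these, 3 have rows in the tables: Gm5526, Gm8894 and Gm10080. The run of 168 coding bases that follows, at coding bases 160 to 327 and across 2 exons of Myl6 (chr10:128492251-128492617, minus strand), is present without a difference in all 3. Its copies lie at chr1:45857461-45857628, chr14:55420398-55420565 and chr9:44374870-44375037.
Myl6: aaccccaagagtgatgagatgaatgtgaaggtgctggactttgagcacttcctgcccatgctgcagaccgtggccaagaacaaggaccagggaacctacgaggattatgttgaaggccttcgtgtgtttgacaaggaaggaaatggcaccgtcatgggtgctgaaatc

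The motor genes were among the abundant RNAs of these platelets and their regulators were not evenly so. The 10 members had a median of 426 CPM, against 3.86 CPM over all 9822 genes, and together gave 11115 ± 463 CPM (SD, n = 3). All 10 reached 1 CPM in every library, as did 77.7% of all genes. At 100 CPM in every library there were 7 of 10, against 7.49% of all genes, and the 3 below were Myl12a, Rock1 and Ppp1r12a. Levels of different genes are compared below per length, as RPKM (CPM per 1000 bases of the deposited gene length). The median member was at 112 RPKM and the median of all genes at 1.49 RPKM.

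**Figure D1:**
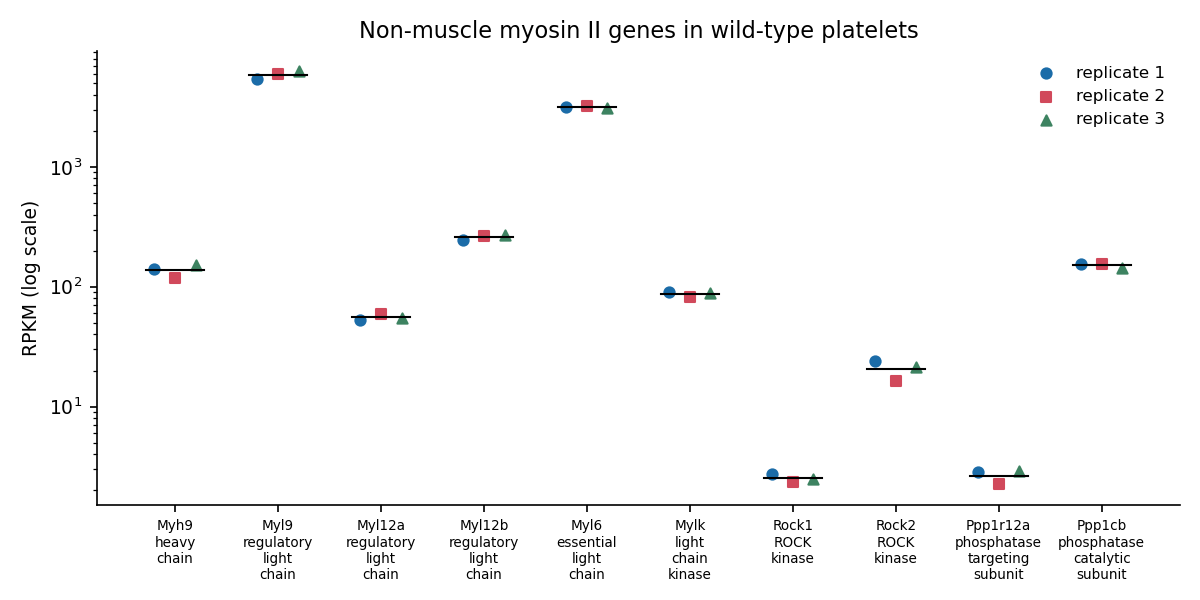
RPKM on a log scale for the 10 members, by role, with 1 point for each of the 3 libraries and a line at their mean. Myl9 and Myl6 lie above 3000 RPKM, Rock1 and Ppp1r12a below 3.

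Myh9 (Entrez gene 17886, chromosome 15, 77760585 to 77842175 on GRCm38 in RefSeq, as for all positions of genes), the heavy chain of myosin IIA, had 28046, 21946 and 29188 counts in replicates 1, 2 and 3. These gave 1040, 871 and 1118 CPM. Its mean was 1010 ± 126 CPM, or 137 ± 17.1 RPKM (SD, n = 3), rank 392 of all genes per length. Replicate 2 was the low library. The other heavy chains lay far below Myh9 or had no row in the tables. Of 13 other class II heavy chain genes on a wider list 3 were in the tables, with a median of 2.26 CPM, and 2 of them reached 1 CPM in every library. Myh15 was the highest at 5.38 CPM or 0.848 RPKM, from 147, 136 and 138 counts. Myh10, the heavy chain of myosin IIB, had 66, 57 and 54 counts, or 2.26 ± 0.189 CPM and 0.290 RPKM. In a pair picked after its values were seen, Myh9 stood 455 times above Myh10 per length (log2 ratio 8.83 ± 0.25, SD, n = 3). The smooth muscle heavy chain Myh11 had 8, 15 and 19 counts.

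Myl9 (Entrez gene 98932, chromosome 2, 156775408 to 156781657) was by far the leading regulatory light chain, a gene otherwise known for its high level in smooth muscle. It had 5865, 6391 and 6774 CPM in replicates 1, 2 and 3, a mean of 5857 ± 421 RPKM, and had rank 16 of all genes per length. Myl12b (Entrez gene 67938, chromosome 17, 70973963 to 70990516) had 230, 250 and 252 CPM, or 260 ± 13.0 RPKM. Myl12a (Entrez gene 67268, chromosome 17, 70993793 to 71002533), its neighbour, had 94.1, 105 and 98.1 CPM, or 55.6 ± 2.99 RPKM. The ranges of the 3 genes did not overlap. Myl12a and Myl12b encode the regulatory chains of most non-muscle cells.

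Per length, Myl9 made up 94.9% ± 0.168 of the summed regulatory light chain level, Myl12b 4.21% ± 0.112 and Myl12a 0.903% ± 0.0568 (SD, n = 3). The makeup was nearly constant between libraries: the Myl9 share was 94.8%, 94.8% and 95.1% in replicates 1, 2 and 3. Myl9 stood 105 times above Myl12a (log2 ratio 6.72 ± 0.09) and 22.5 times above Myl12b (4.49 ± 0.04). Myl12a lay below Myl12b at a log2 ratio of -2.22 ± 0.06. That last value rests on the gene lengths used: by reads alone it was -1.30, and with lengths of GENCODE principal transcripts, a choice made after seeing the data, -1.16. With those lengths the log2 ratio of Myl9 to Myl12b was 5.62. A pseudogene row that shares windows of 50 bases with Myl12a and Myl12b, Gm6517, was at 20.8 CPM, and how reads that fit several of these rows were assigned is not known, so the level of each gene alone is uncertain.

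Myl6 (Entrez gene 17904, chromosome 10, 128490859 to 128493886), the essential light chain that holds the lever arm of the heavy chain, had 1928, 1994 and 1906 CPM, a mean of 1943 ± 46.0 CPM or 3164 ± 74.9 RPKM (SD, n = 3). Its coefficient of variation was 2.37% on plain totals, 9.31% with TMM scaling and 11.9% with DESeq2 size factors. In its own row it lay below Myl9, at a log2 ratio of Myl9 to Myl6 of 0.89 ± 0.11 per length. The pseudogene rows that share the run printed above held more reads than Myl6 itself. Gm5526 was at 2208 ± 30.5 CPM, Gm8894 at 1540 ± 33.8 CPM and Gm10080 at 1194 ± 31.8 CPM (SD, n = 3).

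Together the 3 pseudogene rows had 4928, 5032 and 4868 CPM in replicates 1, 2 and 3, which was 2.54 times the Myl6 row. The Myl6 row held 28.2% ± 0.147 of the 4 rows, nearly the same share in every library. How the counting treated reads that fit several places is not given in the sources used here, so whether these reads come from Myl6 was not tested. The order of the light chains depends on it. With the 4 rows added up and set to the length of Myl6, the log2 ratio of Myl9 to Myl6 was -0.94 ± 0.11, so that Myl9 lay below. By reads, the 4 rows had 6856, 7026 and 6774 CPM, above Myl9 in replicates 1 and 2 and level with it in replicate 3.

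**Figure D2:**
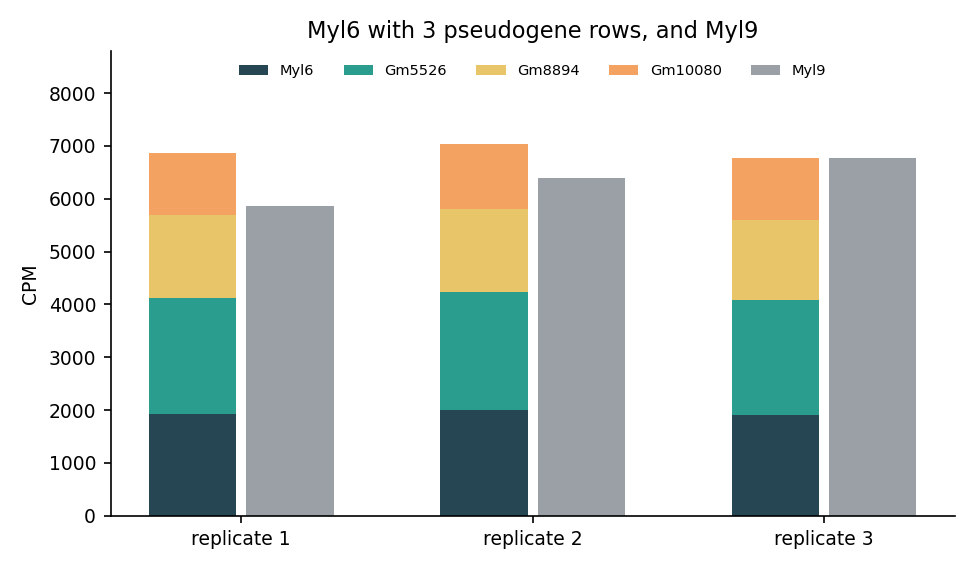
CPM of Myl6 and of the pseudogene rows Gm5526, Gm8894 and Gm10080, stacked, and of Myl9 in each of the 3 libraries. The Myl6 row makes up 28.2% of its stack on average, and the stack is as high as Myl9 or higher in each library.

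Heavy and light chain RNAs were far from equal, although the proteins assemble in equal numbers. Per length Myl9 stood 42.9 times above Myh9 (log2 ratio 5.42 ± 0.20) and Myl6, in its own row, 23.2 times (4.54 ± 0.22, SD, n = 3). Both ratios were highest in replicate 2, where Myh9 was low. Without scaling to length they were 6.31 and 1.93 times. With the pseudogene rows added, the log2 ratio of Myl6 to Myh9 per length was 6.36. Other light chains lay far below those among the members. Of 8 genes on a wider list 3 were in the tables, with a median of 1.12 CPM, and 1 reached 1 CPM in every library. It was Mylpf, a light chain of fast skeletal muscle, at 3.93 CPM or 5.21 RPKM. Myl4, an atrial light chain, was at 1.27 RPKM and its libraries ran from 0.816 to 1.72 CPM.

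Of the enzymes that phosphorylate the regulatory chain, Mylk was the most abundant. It encodes the kinase that calcium and calmodulin switch on (Entrez gene 107589, chromosome 16, 34745199 to 35002436). It had 710, 640 and 691 CPM in replicates 1, 2 and 3, a mean of 680 ± 36.2 CPM or 87.1 ± 4.63 RPKM (SD, n = 3). Mylk also gives rise to shorter products, which a count per gene does not separate. An antisense RNA in the locus, E130310I04Rik, was at 2.01 ± 0.0840 CPM. Mylk lay below Myh9 at a log2 ratio of -0.65 ± 0.12, the same way in all 3 libraries.

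All 3 calmodulin genes, whose products are the same protein, reached 100 CPM in every library. Calm2 led at 492 ± 11.3 RPKM and Calm3 followed at 109 ± 6.69 RPKM. Of 12 other kinases known to act on light chains, 8 were in the tables with a median of 8.56 CPM, 5 reached 1 CPM and 0 reached 100 CPM in every library. The highest was Dapk1, a death-associated protein kinase that also binds calmodulin, at 97.7 ± 7.50 CPM or 16.5 ± 1.26 RPKM. Cdc42bpb, a relative of Rock1 and Rock2, was at 5.63 ± 0.372 RPKM. Per length Mylk stood 5.29 times above Dapk1, a pair chosen after its values were seen. The muscle kinases Mylk2, Mylk3 and Mylk4 had no row in the tables used here.

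Rock1 and Rock2 were uneven. Their products are related kinases that phosphorylate the light chain and inhibit its phosphatase. Rock2 (Entrez gene 19878, chromosome 12, 16894978 to 16988274) had 191, 130 and 172 CPM, a mean of 20.5 ± 3.88 RPKM (SD, n = 3). Rock1 (Entrez gene 19877, chromosome 18, 10064401 to 10182251) had 17.0, 14.5 and 15.4 CPM, from 458, 365 and 403 counts, a mean of 2.53 ± 0.203 RPKM. The ranges did not overlap, and Rock2 stood 8.01 times above Rock1 per length (log2 ratio 3.00 ± 0.18). Rock2 in turn lay below Mylk at a log2 ratio of -2.10 ± 0.21. Of the windows of 100 bases of the Rock1 transcript, 0.615% were found in the pseudogene Gm5374, which has no row in the tables.

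Among 10 other substrates of both kinases, 9 were in the tables, with a median of 4.30 RPKM, and reached 1 CPM in every library. Msn, which links actin to the membrane, was at 78.1 ± 6.34 RPKM and Add1, which caps actin filaments at the membrane, at 43.7 ± 3.76 RPKM.

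**Figure D3:**
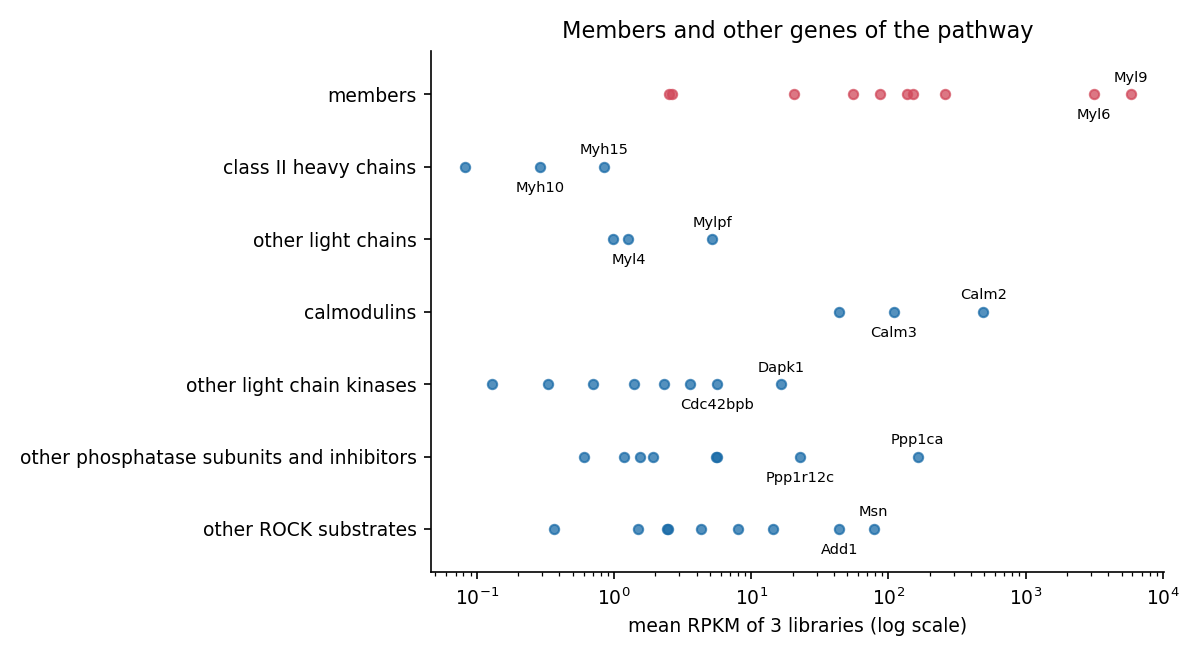
Mean RPKM over the 3 libraries on a log scale, with 1 point per gene, for the 10 members (top row) and for the genes of 6 other lists that were in the tables. The 2 highest genes of each row are named, and Calm2 at 492 RPKM is the highest outside the members.

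For the phosphatase that removes the phosphate, the catalytic subunit Ppp1cb was abundant and the targeting subunit Ppp1r12a far lower. Ppp1cb (Entrez gene 19046, chromosome 5, 32458848 to 32493713), the catalytic subunit of myosin phosphatase, had 620, 621 and 582 CPM, a mean of 151 ± 5.57 RPKM (SD, n = 3). Ppp1r12a (Entrez gene 17931, chromosome 10, 108162092 to 108279985), also called MYPT1, directs it to myosin and had 9.60, 7.66 and 9.80 CPM. These came from 259, 193 and 256 counts, and the exact Poisson 95% interval of the lowest was 6.62 to 8.82 CPM, for counting error only. The mean of Ppp1r12a was 2.65 ± 0.348 RPKM, low beside most other members but above the median of all genes (1.49 RPKM).

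Per length Ppp1cb stood 56.8 times above Ppp1r12a (log2 ratio 5.83 ± 0.23), and Mylk 32.7 times (5.03 ± 0.12). With GENCODE transcript lengths the first log2 ratio was 5.24. Ppp1cb also serves other targeting subunits, so the ratio does not count phosphatase complexes. Of 10 other phosphatase subunits and inhibitors 8 were in the tables with a median of 7.27 CPM, 7 reached 1 CPM in every library and 1 reached 100 CPM, the catalytic subunit Ppp1ca at 163 ± 15.0 RPKM. Ppp1cb and Ppp1ca did not differ beyond their spread per length (log2 ratio -0.11 ± 0.18, above 0 in replicate 1 and below 0 in the others). That value rests on the gene lengths used: by reads alone it was 1.45. Among the targeting subunits Ppp1r12c was the highest, with 64.2, 67.3 and 71.5 CPM or 22.7 ± 1.23 RPKM. In pairs picked after their values were seen, as was the pair before, it stood 8.54 times above Ppp1r12a per length (log2 ratio 3.09 ± 0.20), and its libraries lay above those of Ppp1r12a without overlap.

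In order of mean RPKM the members ran Myl9, Myl6, Myl12b, Ppp1cb, Myh9, Mylk, Myl12a, Rock2, Ppp1r12a and Rock1. Of the 9 pairs of neighbours in this order 7 kept it in all 3 libraries with a mean log2 difference above 2 SD. Ppp1cb and Myh9 did not (0.15 ± 0.23, in this order in 2 of 3 libraries), nor did Ppp1r12a and Rock1 (0.06 ± 0.13, 2 of 3). With GENCODE transcript lengths Myh9 came before Myl12b and Ppp1cb, and those neighbours did not differ beyond their spread. With 3 libraries the smallest two-sided p of an exact sign-flip test is 0.25, so ratios are given with no p-value.

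**Figure D4:**
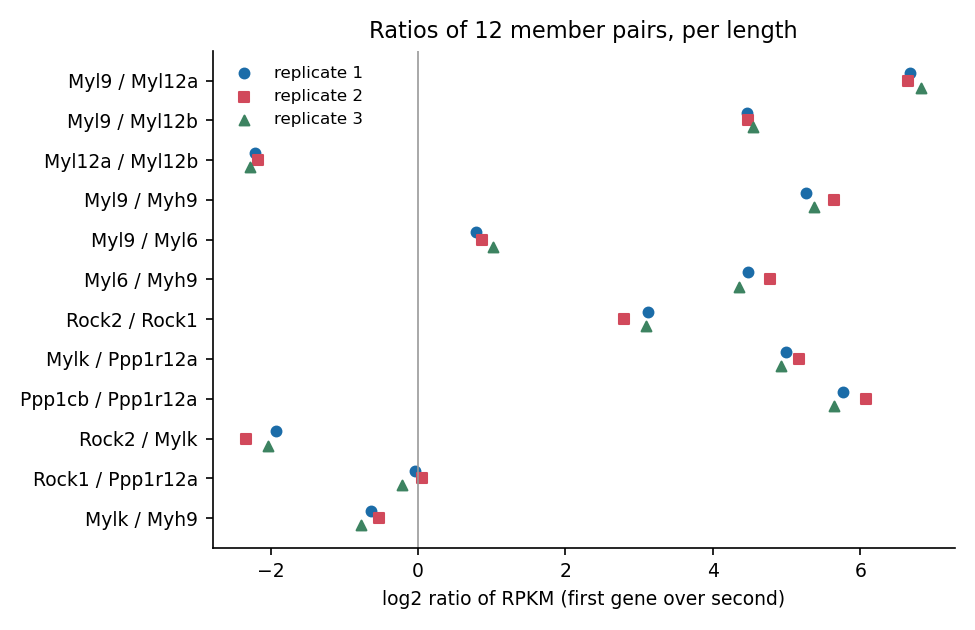
Log2 ratio of RPKM of 12 member pairs, first gene over second, with 1 point per library. In 11 pairs the points lie on one side of 0 and the mean is above 2 SD in size, and Rock1 and Ppp1r12a lie on both sides.

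How much the members varied between libraries depended on the scaling. On plain totals the median gene at a mean of 1 CPM or more lay 0.23 higher in replicate 3 than in replicate 1 on the log2 scale, and with TMM scaling 0.03 higher. The median coefficient of variation was 6.29% for the members and 14.4% for the 8289 genes at a mean of 1 CPM or more on plain totals. With TMM scaling these were 9.60% and 12.4%, and with DESeq2 size factors 11.7% and 12.8%. Rock2 had the highest coefficient of the 10 under these 3 scalings, 18.9% on plain totals, 19.9% with TMM and 20.4% with DESeq2 size factors. Of the 10 members, 0 had a spread above the trend of genes of like level (edgeR's quasi-likelihood dispersion, Benjamini-Hochberg adjusted p of at least 0.982), against 0.229% of 8289 genes tested. Rock2 had the widest range of the 10 on plain totals, 1.47-fold. A wider range of 2.75-fold in Cd79b, a B cell marker at 10.8 CPM, was not called either (adjusted p = 0.627). The 0 calls therefore do not exclude a spread of the size seen. By the same edgeR quasi-likelihood test 1 member, Rock2, had an unadjusted p under 0.05 (adjusted p = 0.982), and DESeq2's dispersion outliers held 0 members. Red cell markers were highest in replicate 1. On plain totals 3 members (Mylk, Rock1 and Rock2) had their highest CPM in that library, 3 in replicate 2 and 4 in replicate 3. With TMM scaling the counts were 6, 4 and 0, and Myh9, Ppp1r12a and Ppp1cb joined the first group. With DESeq2 size factors they were 5, 5 and 0, and with totals without the red cell markers 6, 1 and 3. The share of all genes highest in each library was not computed, so these counts do not set the members apart from other genes. The part of red cell RNA in these values was not tested.

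Myh9, Rock2 and Ppp1r12a, all long genes, were lowest in replicate 2 under every scaling tried. On plain totals 5 of the 6 members longer than 3000 bases had their lowest CPM in replicate 2, and of the 4 shorter than 2000 bases 0 did. With TMM scaling or DESeq2 size factors 3 of the 6 did, since Mylk and Rock1 were then lowest in replicate 3, and still 0 of the 4. The lengths were set after seeing the values. Among all genes at a mean of 1 CPM or more, replicate 2 was lowest on plain totals for 53.3% of those over 3000 bases and 30.4% of those under 2000 bases. With TMM scaling these shares were 41.4% and 22.4%, and with DESeq2 size factors 34.7% and 18.8%. The log2 CPM of replicate 2 on plain totals, less the mean of the others, was -0.48 for Rock2, -0.31 for Myh9, -0.34 for Ppp1r12a, -0.16 for Rock1 and -0.13 for Mylk. Ppp1cb was the exception at 0.05, and the short genes lay between 0.02 (Myl9) and 0.12 (Myl12a).

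Another scaling would move all these differences by one constant. The same measure over all genes had a median of -0.01 up to 1000 bases, -0.15 between 3000 and 4000 bases and -0.24 above 6000 bases. The part of this gradient in the low values of Rock2, Myh9 and Ppp1r12a was not tested. It touches each ratio between a long and a short gene, of which Myl9 to Myh9 was 5.64 in replicate 2 and 5.26 and 5.37 in replicates 1 and 3.

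**Figure D5:**
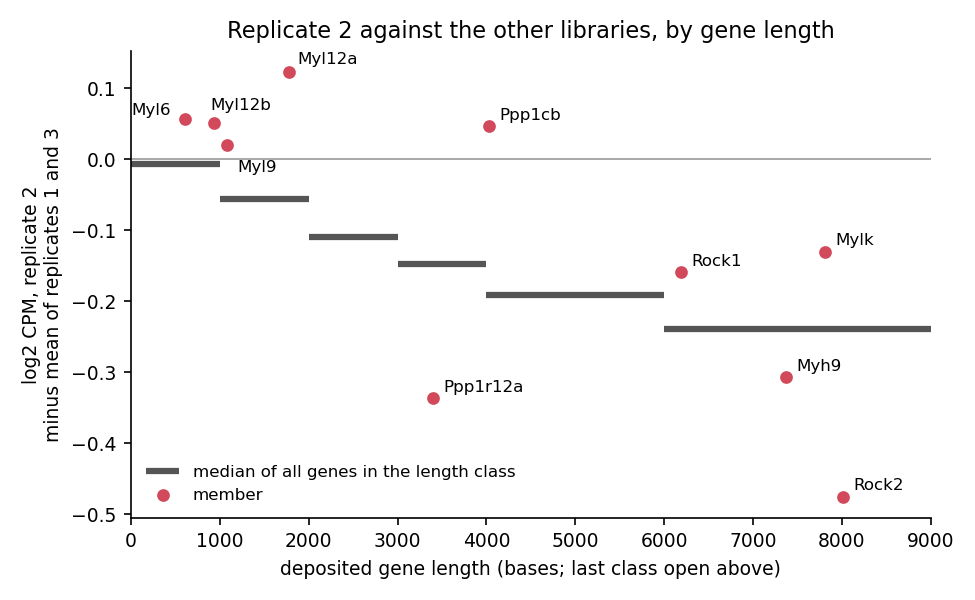
Log2 CPM of replicate 2 minus the mean of replicates 1 and 3 (with 2 counts added), against gene length in bases, for the 10 members (points) and as the median of all genes of a length class (bars). The bars fall with length, and Rock2, Ppp1r12a and Myh9 lie below theirs.

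Since Myl9 and Mylk are also genes of smooth muscle, the markers of that tissue are given beside them. Of 7 on the marker list 5 were in the tables, summing to 177, 203 and 176 CPM in replicates 1, 2 and 3, nearly all of it Smtn at 180 ± 15.2 CPM. The others were low: Acta2 at 1.09 ± 0.294 CPM, Tagln at 2.06 ± 0.177 CPM, Cnn1 at 1.63 ± 0.224 CPM and Myh11 at 0.540 ± 0.221 CPM (SD, n = 3). Des and Lmod1 had no row in the tables used here. The part of smooth muscle RNA in Myl9 and Mylk was not tested. For other cell types, 5 B cell markers summed to 134 to 226 CPM and the 4 T cell markers in the tables to 15.6 to 25.8 CPM. The sums were 10.6 to 19.6 CPM for 3 neutrophil markers and 89.0 to 97.3 CPM for 4 endothelial markers. The B cell and endothelial sums were above the means of Rock1 (15.6 CPM) and Ppp1r12a (9.02 CPM). The 4 monocyte markers summed to 1289 to 1518 CPM, nearly all of it Lyz2. The part of these cells in the lower members, Rock1 and Ppp1r12a among them, was not tested.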

How the data were processed

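Platelet RNA was extracted with a Norgen kit and made into libraries with Illumina TruSeq RNA version 2 chemistry, per the labels' protocols. The authors deposited raw counts per Entrez gene with a gene length (in bases, a value of other kind used only for scaling), 1 table per library. The submitters' processing notes name CASAVA 1.8.2, edgeR 3.11.5, featureCounts, Subread and the build mm10, with no roles. Not known are the annotation, the treatment of reads that fit several places, the strand setting and the filter that left 9822 genes, since the sources used here do not give them.

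Symbols came from RefSeq for GRCm38.p6, the assembly of mm10, by Entrez number (9636 of 9822 matched). The members and gene lists were chosen with earlier results of these data known. Named genes were all 10 members, the 2 highest per length of each wider list and any list member called for spread, unless stated; 1 pathway list is not reported here. CPM used plain totals and RPKM the deposited lengths. Log2 ratios used a prior count of 2. For spread, edgeR 4.0.16 (limma 3.58.1, R 4.3.3) was run with an intercept alone and TMM factors of 0.954, 0.958 and 1.09 on the 8289 genes whose mean CPM was at least 1. Each quasi-likelihood dispersion was compared with its trend value by a one-sided F test, with Benjamini-Hochberg adjustment. The test was checked on simulated data with changes of 2-fold or more in 1 library, wider than the range of any member. Sequences, principal transcripts and shared windows (both strands, genes overlapping the member's locus left out) came from GENCODE M21. Alternatives used DESeq2 1.42.0 size factors and dispersion outliers, other totals, filters, prior counts and lengths, and each library left out. Other steps used Python 3.11.15, NumPy 2.4.6, pandas 2.3.3 and matplotlib 3.10.9.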

Additional observations from a re-analysis of the deposited data

How the results depend on the processing

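TMM or DESeq2 scaling and totals without red cell markers moved no member's mean level by more than 1 SD. TMM and DESeq2 scaling keep the average scale of the 3 libraries nearly fixed, so they could move these means little. A prior count of 0.5 moved no pair ratio by more than 1 SD. Leaving out 1 of 3 libraries cannot move a mean by more than 1 SD, so it was no test of levels or ratios by that rule. The counts of members at 1 CPM and at 100 CPM stayed at 10 and 7 with TMM scaling and with each library left out. Leaving a library out cannot lower such a count. The lowest member value was 7.66 CPM (Ppp1r12a in replicate 2), so TMM scaling could not change the count at 1 CPM. Other scalings of the order and spread of the libraries were chosen after seeing the data. Members over 3000 bases lowest in replicate 2 numbered 3 with TMM or DESeq2 scaling, against 5. The shares of all genes over 3000 bases were 41.4% with TMM and 34.7% with DESeq2, against 53.3%. Members highest in replicate 1 numbered 6 with TMM, 5 with DESeq2 and 6 with totals without red cell markers, against 3. Members highest in replicate 2 numbered 5 with DESeq2 and 1 with totals without red cell markers, against 3, and those highest in replicate 3 numbered 0 with TMM or DESeq2, against 4. For the highest library no share over all genes was computed. The median coefficient of variation of the members was 9.60% with TMM and 11.7% with DESeq2, against 6.29%. With totals that leave out mitochondrially encoded genes the members summed to 14999.5 CPM, against 11115 CPM, and every member's level was higher. A smaller total raises every gene that is not mitochondrially encoded, so this was no test of the members. Without scaling to length 10 of 12 pair ratios moved by more than 1 SD; among the 11 that stood clear of 0 none changed sign, and Rock1 to Ppp1r12a came to 0.79, against -0.07 per length. With GENCODE transcript lengths, chosen after seeing the data, the Myl9 share of regulatory light chains was 97.1%, against 94.9%, and 3 pair ratios moved. With the pseudogene rows added to Myl6, also chosen after seeing the data, the log2 ratio of Myl9 to Myl6 turned to -0.94, against 0.89. The spread test called 0 members under every alternative, while the count over all genes was 19 with edgeR and TMM, 11 with plain totals or a filter of 5 CPM, 28 with DESeq2 size factors, 49 by DESeq2's dispersion outliers, and between 1 (without replicate 1) and 32 (without replicate 3) with a library left out. Rock2 depended on the libraries used. Its unadjusted p by edgeR's quasi-likelihood test was 0.0011 without replicate 3 (adjusted p = 0.209) and 0.52 without replicate 1 (adjusted p = 0.986). No paired analysis was possible because there is 1 group. With 3 libraries and counts of 193 to 458 for Ppp1r12a and Rock1, small differences between those genes were not detectable.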
